A study of Mus musculus with 12 samples.

Results

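The genotype difference pooled over both loads was read from 12 libraries, all of those in the series: 6 from cdKO progenitors and 6 from control progenitors, with load as an additive term. The cells were Pdgfra-positive fibro-adipogenic progenitors, the mesenchymal cells between muscle fibres, sorted at 1000 cells per tube from mouse plantaris muscle. Plantaris muscles had either been overloaded, which makes the muscle carry more work, or sham-operated. All groups carried Pdgfra-CreERT2, an inducible recombinase driven in Pdgfra-expressing cells. The 3 control sham and 3 control overload libraries came from mice with this driver and no floxed allele named in the labels. The 3 cdKO sham and 3 cdKO overload libraries came from mice that also carried Yap1 flox/flox and Taz flox/flox. The sources used here do not state age, sex, the inducing treatment or whether animals were pooled, so a p-value here measures variation from library to library and no more, and part of that may be technical. Of 54100 genes counted, 8161 had enough counts to be tested. A gene was called when its Benjamini-Hochberg adjusted p in edgeR's quasi-likelihood test was under 0.05, and levels are CPM, counts scaled to the library's counts in tested genes times its TMM factor, which evens out differences in composition.

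YAP and TAZ are transcriptional co-activators that enter the nucleus when the Hippo kinases are inactive, for example on stiff or stretched matrix. They do not bind DNA themselves but work through TEAD factors, and known targets include Ccn1, Ccn2 and Amotl2. The pooled comparison asks which genes differ with genotype in resting and in loaded muscle alike.

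The answer in these libraries was short. Of the 8161 genes, 2 were called (0.0245%), both lower in cdKO: Wwtr1, which encodes TAZ, and F2rl1, which encodes the protease-activated receptor PAR2. No gene was called higher. By edgeR, 439 genes (5.38%) had an unadjusted p under 0.05, of which 232 were higher (2.84%) and 207 lower (2.54%). DESeq2 called 2 genes higher and 2 lower, and limma voom with quality weights 1 higher and 2 lower. For 6018 genes (73.7%) the unadjusted 95% interval of the pooled log2 fold change lay wholly between -1 and 1, that is within a 2-fold change either way. Differences of about 2-fold could miss the adjusted threshold, as values for Amotl2 and Pml below show. The median standard error over all tested genes was 0.263 on the log2 scale.

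Wwtr1 (ENSMUSG00000027803, chromosome 3, 57455649 to 57575910, minus strand, GRCm38) is one of the 2 targeted genes. Its levels were 124, 108 and 126 CPM in control sham replicates 1 to 3 and 36.7, 40.6 and 27.1 CPM in cdKO sham. In overloaded muscle they were 174, 125 and 125 CPM in control and 20.1, 18.2 and 22.5 CPM in cdKO. The highest cdKO library therefore lay below the lowest control library over both loads. The pooled log2 fold change was -2.25 ± 0.21 (SE; 95% interval -2.69 to -1.81; edgeR adjusted p = 6.1e-07), and all 27 alternative settings called it. The difference was -1.74 ± 0.27 in sham and -2.78 ± 0.28 in overload. The interaction, which tests whether the 2 differences are unequal, was -1.03 (95% interval -1.83 to -0.23) and did not pass over all genes (edgeR adjusted p = 0.884). An exact permutation of genotype within each load gave p = 0.005 (two-sided, 400 arrangements), the smallest this design can give.

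Yap1 (ENSMUSG00000053110, chromosome 9, 7931999 to 8004596, minus strand), the other targeted gene, was at 108, 91.6 and 94.0 CPM in sham controls and 71.5, 56.2 and 65.7 CPM in cdKO sham. Overloaded muscle gave 91.3, 47.4 and 39.7 CPM in control and 40.2, 22.1 and 33.7 CPM in cdKO. The genotypes separated in sham, and in overload the highest cdKO library stood just above the lowest control library. Pooled over loads the log2 fold change was -0.73 ± 0.22 (95% interval -1.17 to -0.28; edgeR adjusted p = 0.699), which was not a call over all genes in any setting. The exact permutation test of this single gene gave p = 0.01 (two-sided, 400 arrangements). Which exons are floxed is not stated in the sources at hand. The library protocol reads transcripts near their 3′ end, and counts are given per gene. For neither gene was the share of counts from exons that recombination removes tested, so these levels do not measure the deletion itself.

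**Figure D1:**
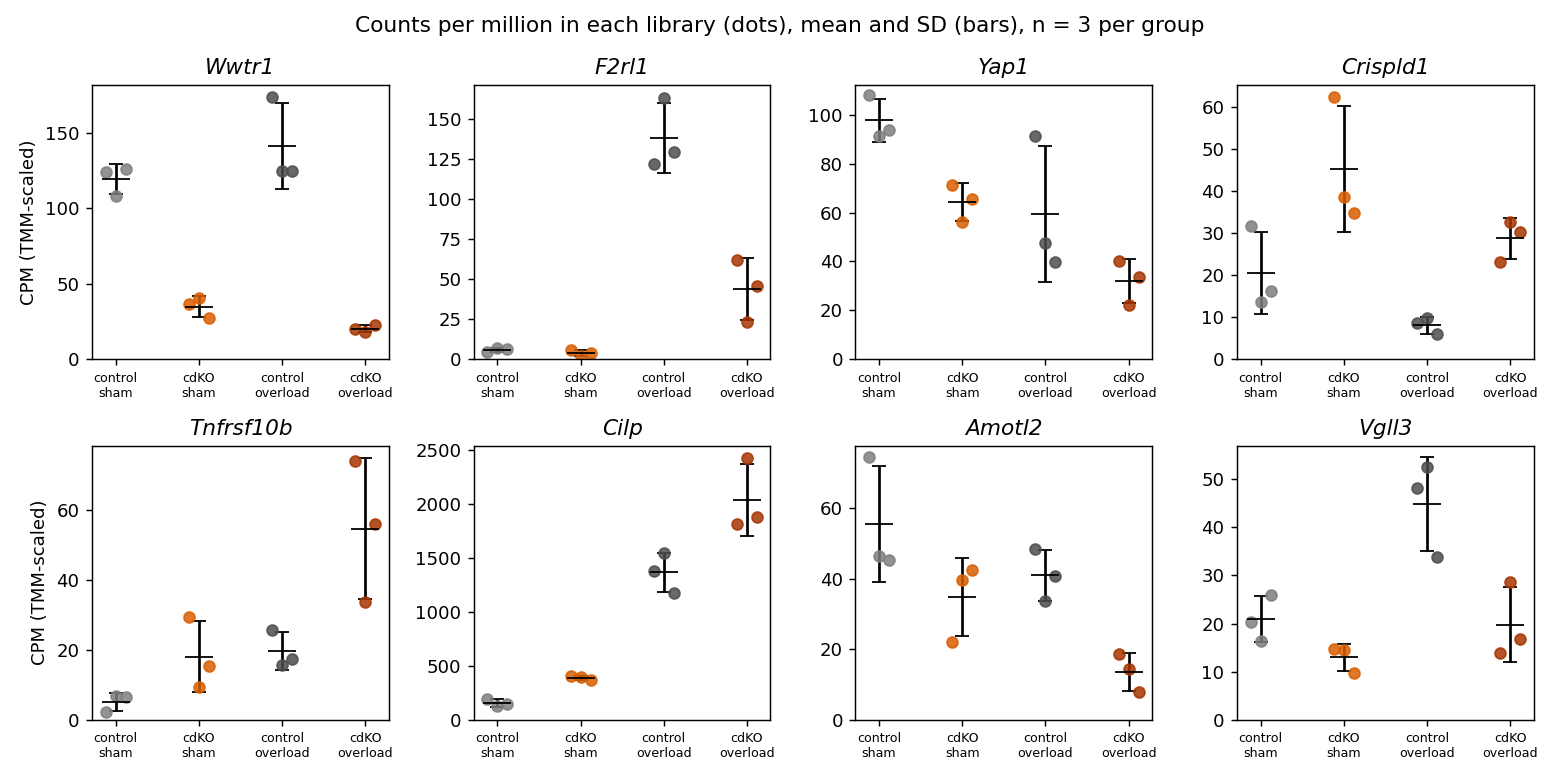
CPM on a linear scale for 8 genes in each of the 12 libraries, with the mean and SD of each group of 3. Wwtr1 in the 6 cdKO libraries sits between 18.2 and 40.6 CPM, below all control libraries, whereas F2rl1 is close to 0 in both sham groups.

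F2rl1 (ENSMUSG00000021678, chromosome 13, 95511732 to 95525227, minus strand) encodes a G protein-coupled receptor that proteases switch on by cutting its extracellular end. In overloaded muscle it stood at 122, 164 and 130 CPM in control and at 61.8, 23.4 and 46.0 CPM in cdKO. The 3 cdKO libraries lay below the 3 control libraries there. In sham muscle it was at 4.50, 6.84 and 6.48 CPM in control and 5.50, 2.08 and 3.87 CPM in cdKO, values that overlap and rest on 2 to 5 counts per library. That is near the 3 counts that a library with no count cannot exclude, so no fold change is given for sham. The pooled log2 fold change was -1.55 ± 0.27 (95% interval -2.11 to -0.99; edgeR adjusted p = 0.0244). The overloaded libraries carried it, at -1.68 ± 0.29. Averaging the 2 loads with equal weight gave -1.22 and ended the call (edgeR adjusted p = 0.732). The call also ended without control overload replicate 2 (adjusted p = 0.122) or 3 (0.0774) and without cdKO overload replicate 2 (0.120) or 3 (0.136), all by edgeR. Summed CPM of 4 Y-linked genes was low in control overload replicates 2 and 3 (64.9 and 68.9, against 118 to 270 in the other 10 libraries). With that sum as a covariate F2rl1 was at adjusted p = 0.481 by edgeR. Of the 2 called genes, Wwtr1 was lower under both loads, while for F2rl1 a difference in sham was not detectable at this depth.

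**Figure D2:**
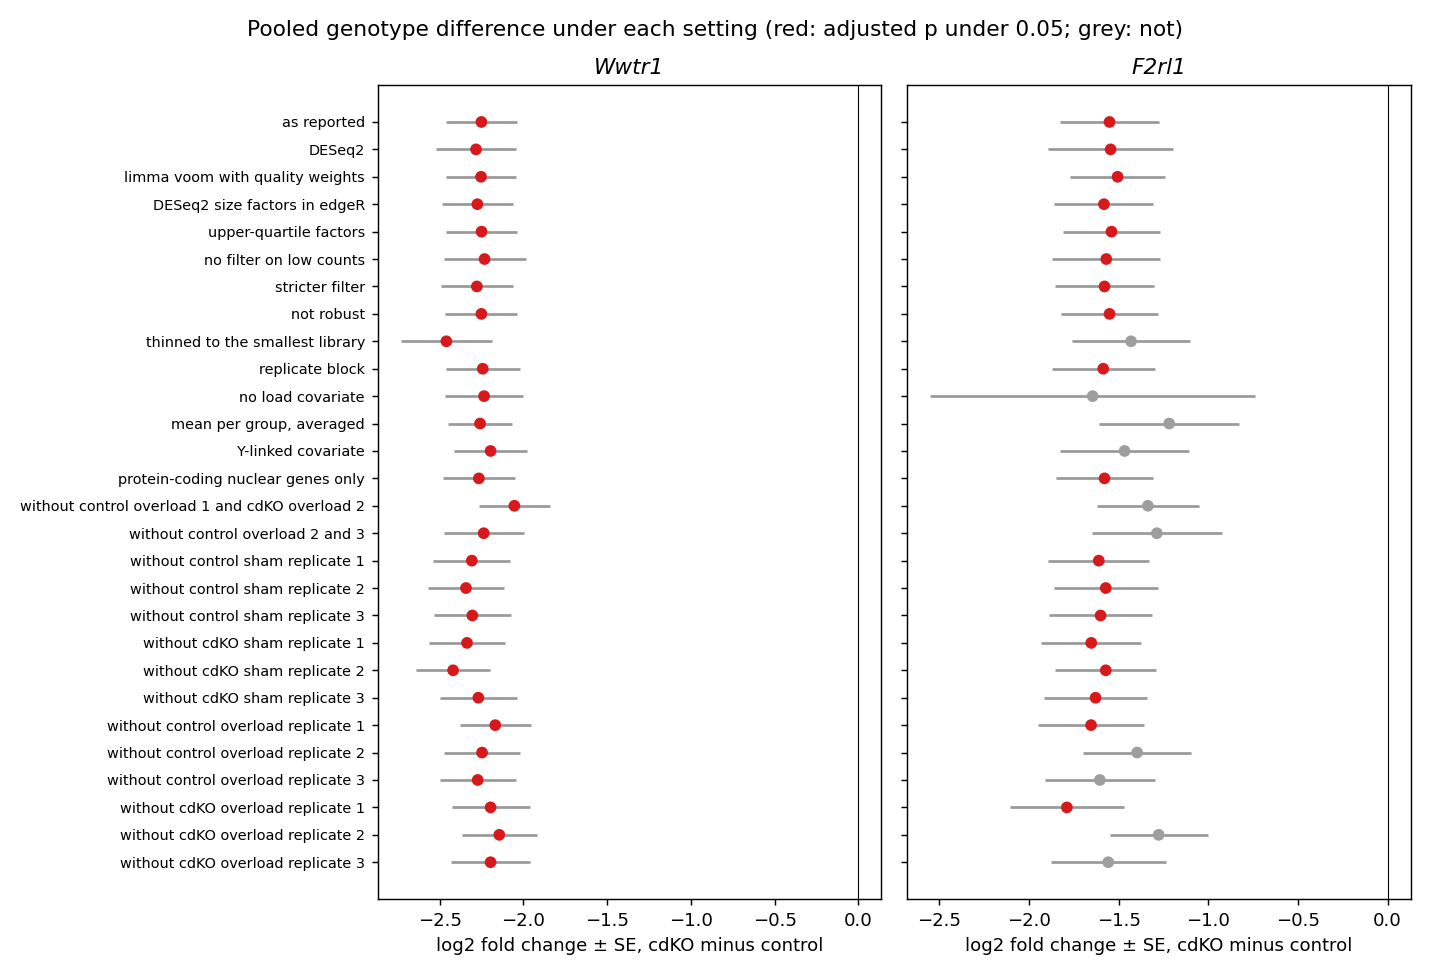
Pooled log2 fold change ± SE of Wwtr1 (left) and F2rl1 (right) as reported and under the 27 alternative settings, named on the vertical axis. Red points passed the adjusted threshold: all for Wwtr1, and 17 of the 27 alternatives for F2rl1, which ranged from -1.79 to -1.22.

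Another 3 genes had an adjusted p under 0.10 (5 genes in all, 0.0613%). They and the other uncalled genes below, apart from members of the gene lists, were chosen after their values were seen. Crispld1 (chromosome 1, 17727045 to 17766344), a secreted cysteine-rich protein gene, was at 31.5, 13.7 and 16.2 CPM in sham controls and 62.3, 38.5 and 34.8 CPM in cdKO sham. Overloaded muscle gave 8.61, 9.74 and 5.84 CPM in control and 23.2, 32.5 and 30.3 CPM in cdKO. The genotypes did not overlap under either load, and the pooled difference was 1.46 ± 0.29 (edgeR adjusted p = 0.0705).

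Tnfrsf10b (chromosome 14, 69767472 to 69784411), the mouse receptor for the death ligand TRAIL, was at 2.25, 6.84 and 6.48 CPM in sham controls and 29.3, 9.37 and 15.5 CPM in cdKO sham. Under overload the levels were 25.8, 15.6 and 17.5 CPM in control and 74.2, 33.8 and 56.1 CPM in cdKO. All cdKO libraries were again above the controls of their load (1.55 ± 0.32, edgeR adjusted p = 0.0874), although the control sham values rest on 1 to 5 counts. Cilp (chromosome 9, 65265180 to 65280605), which encodes a cartilage intermediate layer matrix protein, was at 194, 124 and 149 CPM in sham controls and 403, 395 and 369 CPM in cdKO sham. Under overload the levels were 1377, 1542 and 1176 CPM in control and 1811, 2423 and 1875 CPM in cdKO. The genotypes were apart under both loads, with a pooled difference of 0.93 ± 0.19 (edgeR adjusted p = 0.0874). Each of these 3 genes was called in 4 of the alternative settings and kept its direction in all of those that tested it.

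Across all genes, no common direction of the genotype difference in sham and that in overload was detected. Over the 8161 tested genes, the log2 fold change had the same sign under both loads in 49.4%, with 26.9% higher in both and 22.5% lower in both. Across genes the differences in sham and in overload had a Pearson correlation of -0.122 and a Spearman correlation of -0.0404. Genes are not independent replicates, and these values are descriptions. The SD of the differences over genes was 0.461 in sham and 0.511 in overload. The median standard error of the pooled difference, which uses both loads, was 0.263. Error of that size can hide small shared differences, so the share of equal signs cannot exclude them. For the 1486 genes with a mean of at least 100 CPM the Pearson correlation was 0.0316, with the same sign in 51.3%.

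Because the 6 sham and 6 overload libraries share no sample, each load was also fitted alone. Of 376 genes (4.61%) at an unadjusted p under 0.05 in sham, 185 (49.2%) had the same sign in overload. Of 493 genes (6.04%) at that level in overload, 250 (50.7%) had the same sign in sham. In 17 genes (0.208%) both loads passed with the same sign, and in 27 (0.331%) with opposite signs. The 17 included Wwtr1, Yap1, Crispld1, Tnfrsf10b and Cilp. They also held Anxa3, an annexin gene, at -0.81 ± 0.19 pooled (edgeR adjusted p = 0.314), and Lama2, a laminin chain gene, at 0.71 ± 0.21 (0.699).

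**Figure D3:**
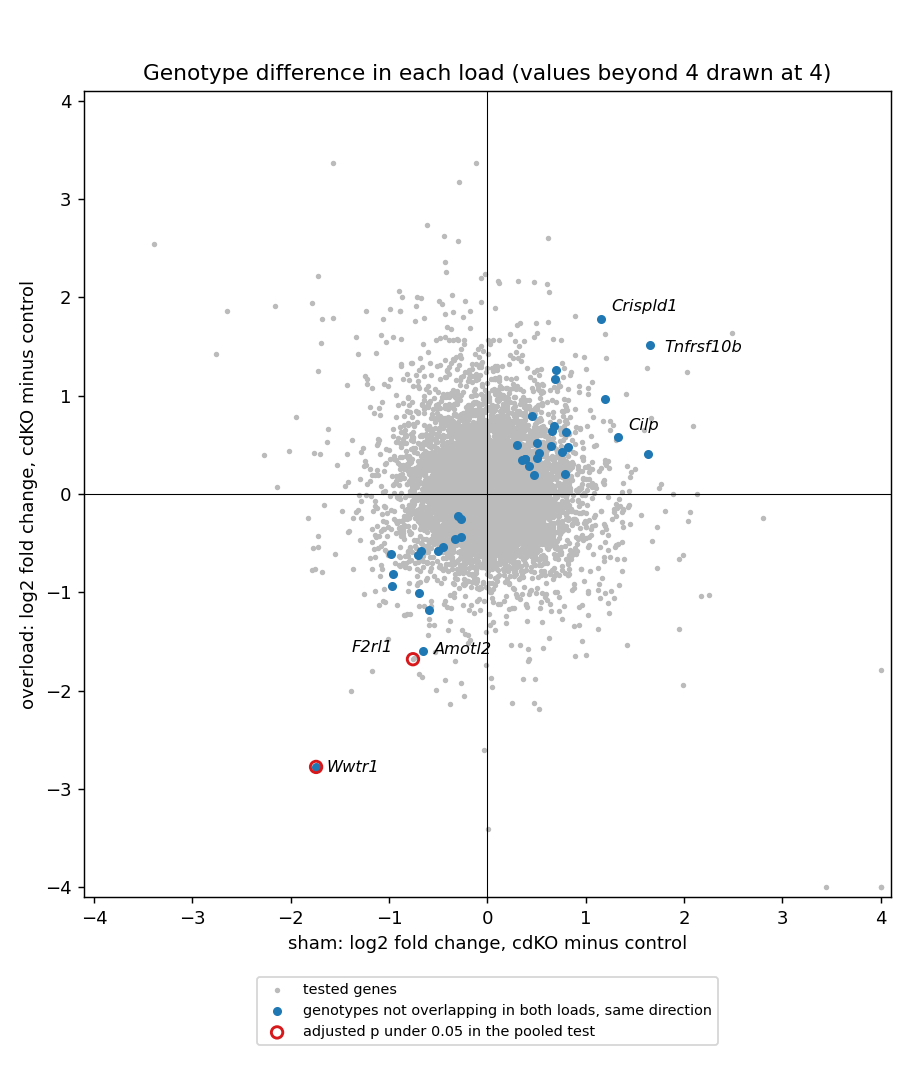
Log2 fold change of cdKO against control in overload (vertical) against sham (horizontal) for the 8161 tested genes, 1 dot each. The 2 differences are weakly and negatively correlated (Pearson -0.122), and Wwtr1 stands alone at lower left. Blue dots are the 39 genes whose genotypes did not overlap under either load, with the same direction in both. The 45 with opposite directions are not marked.

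A stricter reading asked for 3 cdKO libraries wholly on one side of the 3 controls under each load. In sham alone 807 genes (9.89%) met this and in overload alone 872 (10.7%). Under both loads and in the same direction there were 39 genes (0.478%), 24 higher and 15 lower in cdKO. In opposite directions there were 45 (0.551%), so agreement was no more frequent than its opposite. Of the 39, 10 had all 6 cdKO libraries beyond all 6 controls (0.123%), with Wwtr1, Ugcg and Psmd9 below (0.0368%) and, among those above (0.0858%), Pappa, Mdp1 and Lamtor2. Apart from Wwtr1, none of the 39 was called.

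Several genes among the 39 are known for signalling and matrix. Pappa, a protease that frees insulin-like growth factors from their binding proteins, was at 61.6 to 79.3 CPM in the 6 control libraries and 98.8 to 131 CPM in the 6 cdKO libraries. Its difference was 0.66 in sham and 0.64 in overload. Ugcg, which makes glucosylceramide, was at 128 to 178 CPM in control and 75.4 to 121 CPM in cdKO, a difference of -0.70 and -0.62. Both groups of 6 were thus separated by a modest and even step, with edgeR adjusted p = 0.387 for Pappa and 0.417 for Ugcg. Pml, a nuclear body protein gene, was at 72.9 ± 4.72 CPM (SD, n = 3) in control sham against 37.3 ± 1.22 in cdKO sham. In overload it was at 24.2 ± 6.03 against 12.2 ± 4.15. Csf1, the macrophage growth factor gene, was at 208 to 220 CPM in control sham against 125 to 196 in cdKO sham, and at 295 to 330 against 203 to 232 CPM in overload. Their pooled differences were -0.96 ± 0.23 and -0.50 ± 0.16 (edgeR adjusted p = 0.297 and 0.705).

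The Hippo genes were examined as a list of 24, of which 20 could be tested. Wwtr1 fell, 0 rose and 19 did not pass. The list median was -0.14 pooled, -0.13 in sham and -0.21 in overload, against 0.02, 0.01 and 0.03 over all tested genes. Of the 20, 13 were lower under both loads, 3 higher under both and 4 mixed. Over all tested genes 22.5% were lower under both and 26.9% higher. The targeted genes Wwtr1 and Yap1 are in the list, in its median and among the 13. Amotl2, an angiomotin family scaffold and itself a TEAD target, measured 74.3, 46.5 and 45.4 CPM in sham controls and 22.0, 39.6 and 42.5 CPM in cdKO sham. In overload it was at 48.2, 33.8 and 40.9 CPM in control and 18.5, 14.3 and 7.86 CPM in cdKO. Vgll3, a TEAD co-factor, was at 20.3, 16.4 and 25.9 against 14.7, 14.6 and 9.66 CPM in sham, and at 48.2, 52.6 and 33.9 against 13.9, 28.6 and 16.8 CPM in overload. In both genes all cdKO libraries lay below the controls of their load, narrowly so in sham. Pooled differences were -1.08 ± 0.26 for Amotl2 and -0.95 ± 0.27 for Vgll3 (edgeR adjusted p = 0.314 and 0.627). The DNA-binding partners Tead1 (-0.17 ± 0.18), Tead2 (-0.47 ± 0.27) and Tead3 (0.43 ± 0.37) and the kinases Lats1 (-0.12 ± 0.22) and Lats2 (-0.05 ± 0.21) did not pass.

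Known targets of YAP, TAZ and TEAD did not share a direction. Of 24 listed genes 17 could be tested, and 0 were called. Of the 17, 5 were lower under both loads, 6 higher under both and 6 mixed, with a pooled median of -0.02. Ccn1, a matricellular gene, was at 143 ± 16.8 CPM in control sham, 103 ± 76.1 in cdKO sham, 96.1 ± 15.96 in control overload and 93.3 ± 22.96 in cdKO overload (SD, n = 3). Ccn2, the connective tissue growth factor gene, was at 218 ± 81.2, 164 ± 86.0, 1087 ± 699.7 and 769 ± 71.9 CPM in the same order. Pooled differences were -0.24 ± 0.24 (95% interval -0.74 to 0.27) for Ccn1 and -0.46 ± 0.36 (-1.24 to 0.31) for Ccn2. Without cdKO sham replicate 2, which at 191 CPM stood above the 51.3 and 67.7 CPM of the other two, Ccn1 was at -0.55. Leaving out cdKO sham replicate 1 moved Ccn1 to -0.11 and replicate 3 to -0.16. Ccn2 turned to 0.14 without control overload replicates 2 and 3, and ran from -0.70 (without control overload replicate 1) to -0.31 (without control overload replicate 3) with 1 library left out. Neither gene was called in any of these settings. Thbs1, which encodes thrombospondin-1, is not in this target list. It was at 829 to 1007 CPM in sham controls and 314 to 885 in cdKO sham, and at 2513 to 3090 against 1863 to 2182 CPM in overload. Its pooled difference was -0.43 ± 0.21 (edgeR adjusted p = 0.911). Of the listed targets, Gadd45a, a growth arrest gene (0.41 ± 0.18), and Ccdc80, a matrix protein gene (0.35 ± 0.17), were higher in cdKO under each load and not called. Ankrd1 had 0 to 9 counts per library and could not be tested.

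TEAD factors are known to recognise GGAATG, whose reverse complement is CATTCC. Printed below are promoters of 3 genes above, each with 1 match in the stretch shown. They are not all of the genes above that hold a match. They were chosen after the values were seen, to set 2 genes whose cdKO libraries all lay below the controls of their load beside a known target whose libraries overlapped. The sequences come from RefSeq (GRCm38.p6) and run 5′ to 3′ on the gene's strand over the 150 bases before the start site, with the match in capitals.
Amotl2: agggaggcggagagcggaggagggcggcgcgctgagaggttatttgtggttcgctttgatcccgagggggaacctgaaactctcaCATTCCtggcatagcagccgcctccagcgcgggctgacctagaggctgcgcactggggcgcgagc
Vgll3: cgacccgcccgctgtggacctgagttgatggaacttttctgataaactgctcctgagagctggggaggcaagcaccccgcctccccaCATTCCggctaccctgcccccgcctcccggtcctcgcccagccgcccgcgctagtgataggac
Ccn1: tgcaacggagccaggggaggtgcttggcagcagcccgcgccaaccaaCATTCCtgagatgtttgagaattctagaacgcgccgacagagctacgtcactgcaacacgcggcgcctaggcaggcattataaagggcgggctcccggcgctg
The windows are chr9:102717654-102717803 (plus strand), chr16:65815039-65815188 (plus strand) and chr3:145649986-145650135 (minus strand). The match begins 65, 63 and 103 bases before the start. Searching GGAATG on both strands from 250 bases before to 50 after each start, 886 of 6260 tested genes with a promoter entry held it (14.2%). Among genes whose genotypes did not overlap under either load, in the same direction, it was in 6 of 14 with an entry on the lower side (42.9%). On the higher side it was in 2 of 15 (13.3%). The 6 include the targeted gene Wwtr1, the only called gene with an entry. The genes on both sides were chosen by their values, and a match is not a bound site.

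Collagen genes were mostly higher in cdKO by small steps. Of 16 listed genes, all tested, 0 were called, 11 were higher under both loads, 1 was lower under both and 4 were mixed. Over all tested genes 26.9% were higher under both and 22.5% lower. The list median was 0.31 pooled, 0.36 in sham and 0.27 in overload. Col1a2, a chain of type I collagen, was at 10274, 10528 and 9434 CPM in sham controls and 13421, 13783 and 12249 CPM in cdKO sham. In overload it was at 16883, 16615 and 13879 CPM in control and 20884, 20301 and 19635 CPM in cdKO. Every cdKO library exceeded the controls of its load, but the pooled difference of 0.37 ± 0.18 (edgeR adjusted p = 0.927) was no call. Col6a3, a type VI collagen chain (0.51 ± 0.17), likewise did not overlap under either load, and Col12a1, a fibril-associated collagen, was lower in cdKO under both loads (-0.41 ± 0.17). Col5a3 was at 0.44 in sham and -0.51 in overload, and Col5a2 at 0.33 and -0.18. Summed over the 16 genes, the level was 34030 to 39060 CPM in sham controls and 44020 to 47070 in cdKO sham. In overload the sums were 62710 to 86460 and 86090 to 93810 CPM, which overlap. In the tenogenic, chondrogenic and osteogenic list of 24, 16 were tested and 0 called, with 11 higher under both loads. Its median was 0.31, with Cilp above, Mgp, an inhibitor of calcification, at 0.68 ± 0.21 and Prg4, encoding lubricin, at 0.57 ± 0.20.

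Cell cycle genes held no call as tested. Of 16 tested S phase genes 0 were called, although Rrm2, a ribonucleotide reductase subunit gene, was called with no filter on low counts. Of the 16, 12 had an unadjusted p under 0.05 in the lower direction by edgeR, against 2.54% of all tested genes. The median of the 16 was -0.88 pooled, but -0.23 in sham and -0.995 in overload. Under both loads 8 were lower and 1 higher, and 7 were mixed. Over all tested genes 22.5% were lower under both. The replicative helicase genes Mcm2 (-1.10 in sham and -1.13 in overload), Mcm4 (-0.71 and -0.83) and Mcm6 (-0.80 and -0.99) were among those 8. Lig1, a DNA ligase gene, was among the 7 mixed (0.24 and -1.53). Depth limits these genes in sham. Of 10 tested G2 and M phase genes 0 were called and 7 had such a p, with a median of 0.16 in sham and -1.40 in overload. Mki67, the proliferation marker, was at 13.5, 2.73 and 22.7 CPM in control sham against 3.67, 1.04 and 9.66 in cdKO sham, which overlap. In overload it was at 24.1, 28.6 and 40.9 against 4.63, 6.50 and 11.2 CPM, which do not. Summed mitotic genes in sham gave 96.8 to 181 CPM in control and 88.5 to 147 CPM in cdKO, at few counts per gene, and in overload 407 to 859 against 127 to 318 CPM. No interaction was called in any gene by edgeR (427 had an unadjusted p under 0.05, 5.23%), so an unequal difference in the 2 loads was not shown for any of them.

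**Figure D4:**
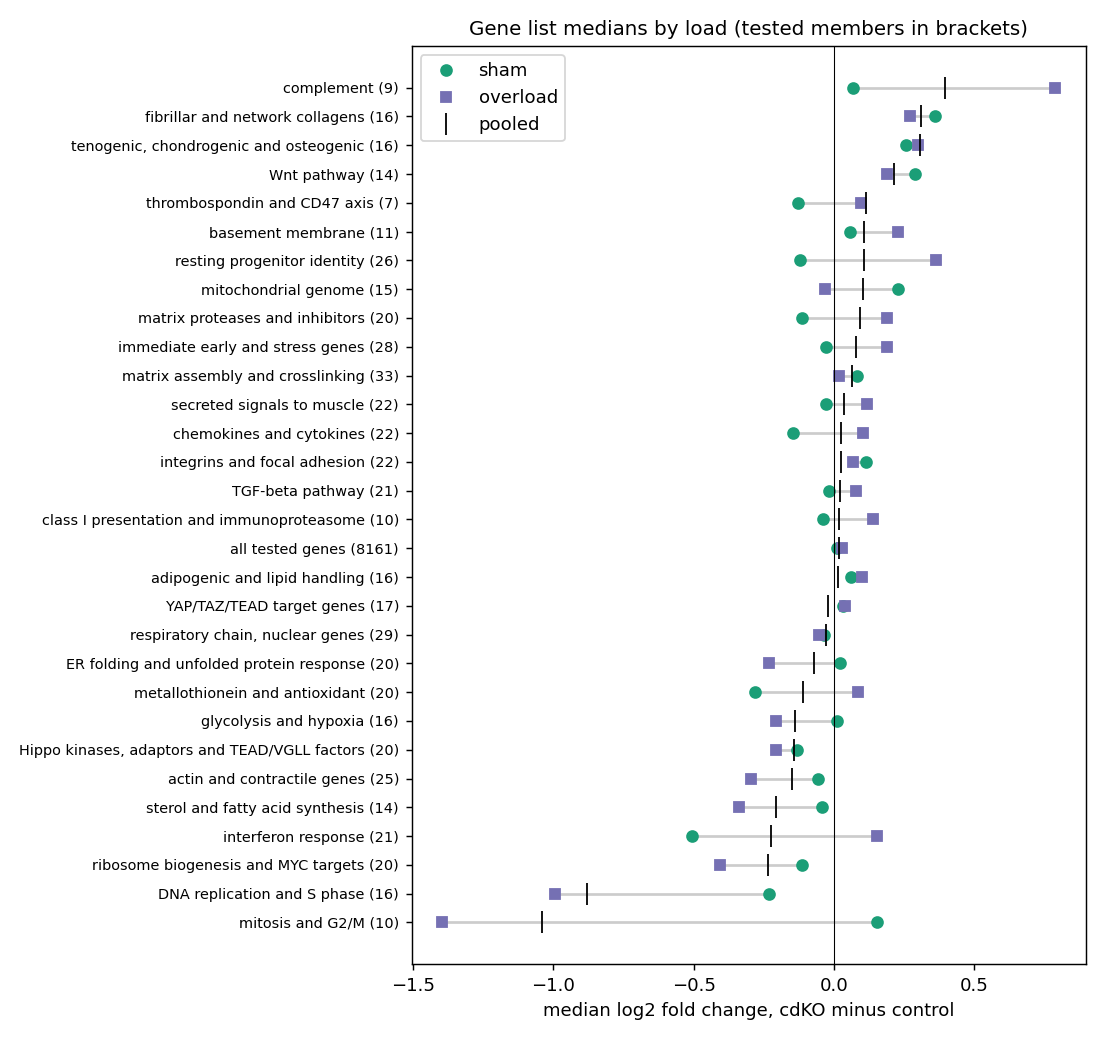
Median log2 fold change of cdKO against control for each gene list (vertical axis, with the number of tested members) in sham, in overload and pooled. Collagens sit to the right in both loads (0.36 and 0.27), whereas the mitotic list is at 0.16 in sham and -1.40 in overload.

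In the remaining lists no gene was called as tested. Il1rl1, of the chemokine and cytokine list, was called with no filter on low counts. As tested it was at -1.20 ± 0.42 pooled, 0.41 in sham and -1.58 in overload. Over all 8161 tested genes, 2195 were higher under both loads, 1840 lower under both and 4126 mixed. Of 14 tested Wnt pathway genes 7 were higher under both loads, 0 lower and 7 mixed, with a median of 0.29 in sham and 0.19 in overload. Of 20 tested ribosome biogenesis genes 12 were lower under both loads, 0 higher and 8 mixed, with medians of -0.11 and -0.40. Of 26 tested genes of resting progenitor identity, 18 had opposite signs in the 2 loads, and of 25 tested actin and contractile genes 14 were lower under both and 2 higher, with a median of -0.15. The 9 tested complement genes had a median of 0.07 in sham and 0.79 in overload, and 21 interferon response genes -0.51 and 0.15. The 15 mitochondrial genome genes summed to 74370 to 110900 CPM in control sham and 125800 to 148200 in cdKO sham, which do not overlap. In overload their sums were 85700 to 117400 CPM in control and 88760 to 108300 in cdKO, which overlap. The bearing of this on the other sham differences was not tested. Pdgfra, the receptor used for the sort, measured 522 ± 74.1 CPM (SD, n = 3) in sham controls and 686 ± 186 in sham cdKO, and at 376 ± 67.3 and 324 ± 66.0 CPM in the overloaded controls and cdKO, with a pooled difference of 0.09 ± 0.19.

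Library totals ran from 336437 to 1564581 counts. Correlation between libraries had a median of 0.910 within a group, 0.911 between genotypes of the same load and 0.816 between loads. On the first principal component control overload 1 (15.8) and cdKO overload 2 (7.39) were the overloaded libraries closest to the sham ones, which ran from -39.9 to -28.7. The other 4 overloaded libraries were at 32.6 to 61.1. Of the 5 progenitor markers Pdgfra, Ly6a, Cd34, Dcn and Gsn, all were tested and 0 called. Their summed level was 57020 to 77060 CPM in control sham, 61290 to 64930 in cdKO sham, 10950 to 18400 in control overload and 17350 to 28750 in cdKO overload. The myeloid list, with 1 of 13 genes testable, summed to 52.0 to 67.6, 27.1 to 47.7, 11.7 to 67.2 and 8.98 to 65.0 CPM in that order. The erythroid list, with 3 of 5 testable and 0 called, summed to 0 to 4.50, 5.50 to 129.5, 12.3 to 281 and 0 to 1.12 CPM. The endothelial list, with 6 of 10 testable and 0 called, summed to 139 to 264, 99.0 to 278, 22.7 to 169 and 51.0 to 78.01 CPM. The part of other cells in the differences above was not tested, and in bulk RNA fewer cells of a type cannot be told from less RNA per cell.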

How the data were processed

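The authors deposited raw counts per gene for 12 libraries. The submitters' processing notes name GRCm38 and list DESeq2 1.26.0, featureCounts 2.0.1, HISAT2 2.2.1 and Trim Galore 0.6.6; no source at hand states annotation release, strand setting or molecular identifiers, so antisense partners and near-identical genes cannot be told apart. Genes were kept by filterByExpr on the 4 groups, scaled by TMM and fitted in edgeR 4.0.16 (R 4.3.3, robust quasi-likelihood, load plus genotype, two-sided). Values within a load and the interaction came from a fit with a mean per group. All 54100 identifiers matched the GRCm38 annotation (GENCODE). On the scale of the printed levels, a floor of 3 counts equals 1.95 to 9.72 CPM. Counting limits cover counting error only. Within groups, all library pairs differed by more than counting noise (chi-square over its degrees of freedom 4.20 to 23.5).

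The comparison, the 40 gene lists, the naming rule and the alternatives were chosen with earlier results of these data known. The rule takes Ankrd1, Ccn1, Ccn2, Pdgfra, Thbs1, Wwtr1 and Yap1, up to 15 called genes each way of largest fold change with the same sign under both loads, no overlap under either load and at least 20 CPM in the higher genotype (predicted genes and pseudogenes left out), up to 4 called members of each list, and up to 4 called genes of smallest interaction p. Beyond its fixed genes it added F2rl1 by the last part; all other named genes were chosen after their values were seen or stand as list members. Alternatives were DESeq2 1.42.0, limma 3.58.1 voom with quality weights, other scalings, filters and designs, thinned counts, a replicate block and libraries left out. The test was tried on simulated counts.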

Additional observations from a re-analysis of the deposited data

Results flagged for a closer look

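Among 557 tested genes of the lists or named above, 4 had all cdKO libraries on one side of the controls in sham and on the other side in overload, so their genotype differences moved in opposite directions. None passed the interaction test over all genes, and 45 of all 8161 genes had this pattern (0.551%). The 4 adjusted p-values below are by edgeR. Ccnb2, a mitotic cyclin gene, had an interaction of -2.08 on the log2 scale (edgeR adjusted p = 0.813), with 6.72 CPM in control sham, 12.9 in cdKO sham, 35.8 in control overload and 16.8 in cdKO overload. Gapdh, a glycolytic enzyme gene whose counts are uncertain because it has near-identical pseudogenes, at 5.20 to 46.7 CPM, had -2.22 (adjusted p = 0.582). Ifi35, an interferon-induced gene, had 1.55 (adjusted p = 0.873), and the Y-linked Uty had 2.57 (adjusted p = 0.601), beside the low Y-linked sums of control overload replicates 2 and 3.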

How the results depend on the processing

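Over the 27 alternatives, Wwtr1 was called in all 27 (log2 fold change -2.46 to -2.05) and F2rl1 in 17, at an adjusted p of 0.00326 to 1. Against 2 genes called, 0 higher and 2 lower, DESeq2 called 4, of which 2 were higher and 4 had the same sign under both loads, and voom called 1 higher. With no filter on low counts 9 were called (Rrm2, Asf1b and Il1rl1 among them), 4 higher and 5 lower, 8 of them with the same sign under both loads. Thinning to the smallest library, no load covariate, equally weighted loads, and leaving out control overload replicates 2 and 3 each left 1 gene, Wwtr1, lower and with the same sign under both loads. The Y-linked covariate, and leaving out control overload replicate 1 with cdKO overload replicate 2, each gave 1 higher (Cilp and Tnfrsf10b) and 1 lower (Wwtr1). Leaving out 1 library at a time gave 1 to 5 genes called, 0 to 2 higher and 1 to 3 lower, with 1 to 5 of the same sign; without cdKO sham replicate 2 there were 5, and without control overload replicate 2 or 3 or cdKO overload replicate 3 there was 1. The cause of these changes was not tested.

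Ccn2 reversed to 0.14 without control overload replicates 2 and 3, and Pdgfra ran from -0.06673 (without cdKO sham replicate 2, a reversal) to 0.1927 with 1 library left out; neither was called in any setting. The correlation of sham and overload differences across genes, computed on mean log2 CPM, was -0.0823 with all libraries and -0.123 to 0.00762 with 1 left out, an alternative chosen after seeing the data. With a replicate block 2 genes were called, with Wwtr1 at -2.24 and F2rl1 at -1.59. Same-numbered libraries did not pair: 6 of 18 pairs correlated above 0.1 (range -0.228 to 0.268), and 4 of 12 libraries correlated best with their own number. Depth limits F2rl1, Tnfrsf10b and the cell cycle genes in sham.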

Other observations

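Ugcg, Col27a1 and Pappa, which rank among the 14 genes with the smallest pooled p, lie on chromosome 4 between 59189257 and 65357509 (GRCm38). Of 15 tested genes in this interval, these 3 had an unadjusted p under 0.05 by edgeR and genotypes that did not overlap under either load, against 28 and 4 of 470 on the whole chromosome. Chromosome 9, which holds Yap1, had 30 and 6 of 481, and all tested genes had 439 and 39 of 8161. Ugcg was lower in cdKO, and Col27a1 and Pappa were higher. Tnc, the tenascin-C gene in the same interval, was at 0.21 (unadjusted p = 0.587). The interval was chosen after the values were seen.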
